A study of Mus musculus with 2 samples.

Results

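In CD45+ cells sorted from mouse hearts, 674 of 9770 kept cell barcodes carried RNA typical of neutrophils and RNA typical of macrophages at once. Of these, 151 came from the library of sham-operated mice and 523 from the library of mice with transverse aortic constriction (TAC). The barcodes were chosen on their measured RNA, so the values of the genes used are a description and carry no test. Per 10000 unique molecular identifiers (UMIs, counts of single RNA molecules), a member had at least 50 of S100a8 and S100a9 together, over 20 of C1qa, C1qb and C1qc together, and under 10 of the granule genes Ngp, Camp and Ltf together. It also had at least 1 UMI of the receptor genes Csf3r and Cxcr2. Barcodes that met all of this with at most 20 C1q UMIs per 10000 formed the low-C1q gate, with 13 sham and 608 TAC barcodes. A macrophage reference had C1q above the same limit, under 50 of S100a8 and S100a9, under 10 of the granule genes, no receptor UMI and at least 1 UMI of Adgre1 or Csf1r, with 2876 sham and 2303 TAC barcodes.

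Both groups were wild-type C57BL/6 mice aged 10 weeks, and the operation is the only labelled difference between them. TAC narrows the aorta and raises the pressure that the left ventricle works against. Each group was 1 10x Genomics library of cells from 6 mice, and no label ties a barcode to an animal. Library and operation therefore cannot be told apart, no p-value is given, and all intervals are 95% intervals that cover counting error only.

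Neutrophils are short-lived granulocytes that enter injured tissue early. They hold large stores of calprotectin, the S100A8 and S100A9 heterodimer, and depend on the G-CSF receptor (Csf3r) and the chemokine receptor CXCR2. Macrophages of the heart include long-lived resident cells and cells derived from blood monocytes. They make C1q, the recognition unit of the classical complement pathway, and clear dying cells, neutrophils among them.

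The genes of the rule lie in a few places of the mm10 genome (GRCm38, GENCODE vM21), and all are annotated as protein coding. C1qb (136880129 to 136886187), C1qc (136889804 to 136893065) and C1qa (136895917 to 136898803) are neighbours on the minus strand of chromosome 4. S100a8 (90668978 to 90670035, plus strand) and S100a9 (90692632 to 90695721, minus strand) lie side by side on chromosome 3. Csf3r lies on chromosome 4 at 126024550 to 126044440 and Cxcr2 on chromosome 1 at 74153989 to 74161246.

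The sham library held 11941 barcodes and 87532984 UMIs, and the TAC library 7975 barcodes and 97983083 UMIs. The filter (300 detected genes or more, mitochondrial UMIs up to 10%) kept 4169 sham barcodes (34.9%) and 5601 TAC barcodes (70.2%), with median depths of 9536 and 13892 UMIs. The libraries shared 35 barcode sequences, of which 7 were kept in both. No sham member occurred in the TAC library, 3 TAC members occurred in the sham library, and none was a member in both.

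Barcodes with both RNAs made up a larger share of the TAC library. In sham they were 3.62% of kept barcodes (exact Clopper-Pearson interval 3.08 to 4.23). In TAC they were 9.34% (8.59 to 10.1), a 2.58-fold higher share (2.15 to 3.11). The low-C1q gate differed far more, with 0.312% of kept sham barcodes (0.166 to 0.533) and 10.9% of kept TAC barcodes (10.1 to 11.7), a 34.8-fold ratio (20.2 to 65.8) at this mitochondrial limit. Of all barcodes in the neutrophil gate at any C1q level, 151 of 164 in sham (92.1%, 86.8 to 95.7) and 523 of 1131 in TAC (46.2%, 43.3 to 49.2) therefore carried C1q above the limit. Set against all kept barcodes with C1q above the limit, members were 151 of 3605 (4.19%) and 523 of 3774 (13.9%), a 3.31-fold ratio (2.76 to 3.99).

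These shares moved with the mitochondrial limit. At a limit of 5% the log2 ratio of the members' share was 2.69 in place of 1.37, but only 2 sham members of 121 kept sham barcodes remained. The ratio of the low-C1q share fell to 9.77-fold (7.95 to 12.1) at a limit of 25%, with 104 of 9135 sham and 742 of 6668 TAC barcodes. At 5% it was 10.2-fold (1.82 to 406) and rested on 1 sham barcode. With no mitochondrial limit, 221 of 351 sham barcodes in the neutrophil gate (63.0%, 57.7 to 68.0) and 565 of 1323 TAC barcodes (42.7%, 40.0 to 45.4) carried both RNAs.

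**Figure D1:**
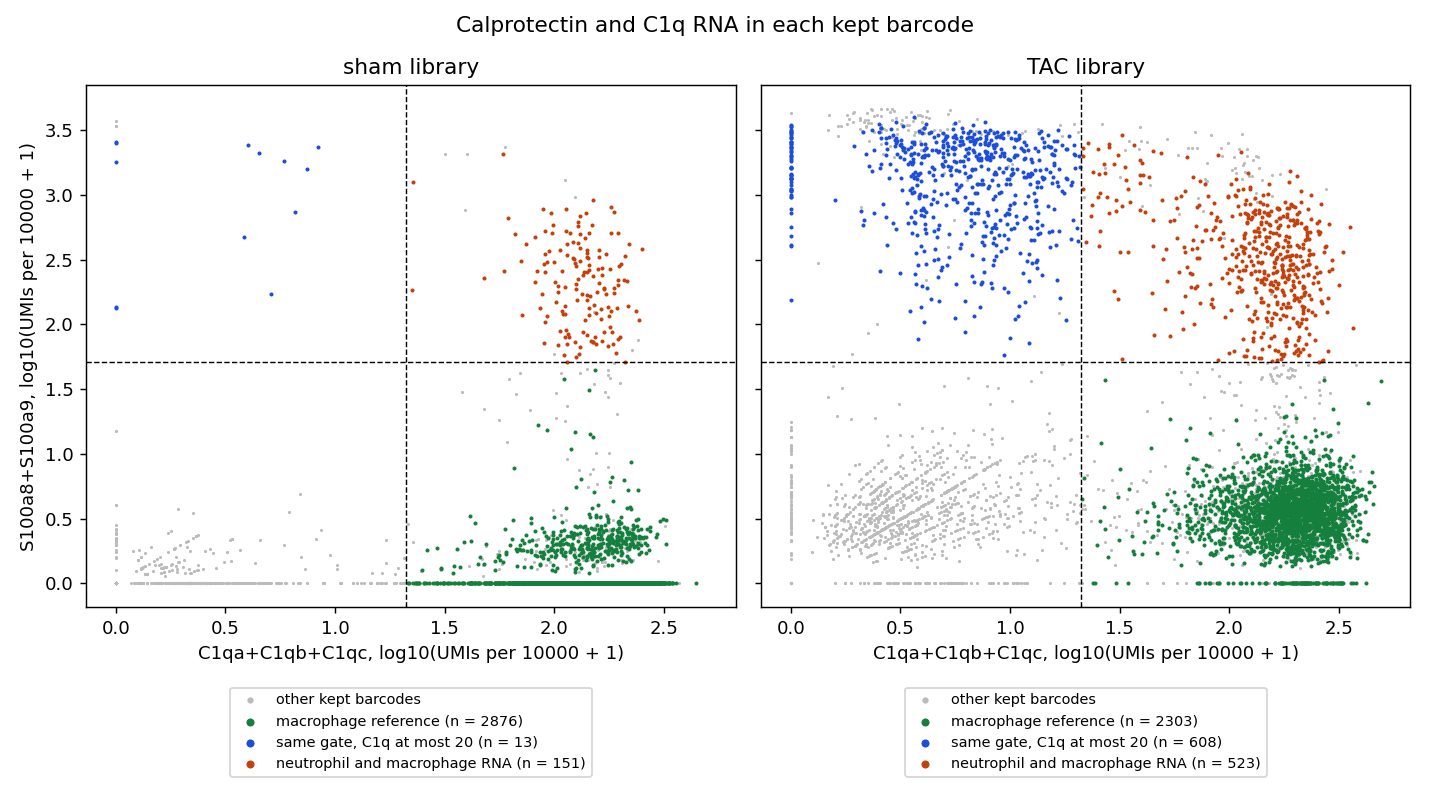
Each point is 1 kept barcode of the sham (left) or TAC (right) library. The x axis gives C1qa, C1qb and C1qc and the y axis S100a8 and S100a9, each summed as log10 of UMIs per 10000 plus 1, with dashed lines at 20 and 50. Orange points are the 151 sham and 523 TAC members, blue points the low-C1q gate (13 and 608), green points the macrophage reference and grey points all others.

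By the genes that chose them, members stood between both references in calprotectin and close to macrophages in C1q. S100a8 and S100a9 together had a median of 213 UMIs per 10000 in sham members (quartiles 117 and 352) and 336 in TAC members (177 and 631). The low-C1q gate had 1784 and 1506, and the macrophage reference 0 in sham and 2.46 in TAC. C1q had a median of 133 in sham and 149.9 in TAC members, against 159 and 197 in the macrophage reference. The receptor genes Csf3r and Cxcr2 had a median of 6 UMIs per sham member and 10 per TAC member, and 114 sham members (75.5%) and 466 TAC members (89.1%) carried UMIs of both.

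Marker genes outside the rule were compared with other cell classes and at equal depth, as the share of barcodes with a UMI. Adgre1, which encodes F4/80, or Csf1r, the receptor of the macrophage growth factor CSF1, was detected in all 151 sham members and 485 of 523 TAC members (92.7%). In the low-C1q gate 5 of 13 sham (38.5%) and 154 of 608 TAC barcodes (25.3%) had a UMI. After thinning to 2000 UMIs the shares were 84.1% in sham and 59.0% in TAC members (54.6 to 63.3, 1 left out), against 10.9% in the TAC low-C1q gate (8.57 to 13.7, 5 left out). Fibroblast barcodes, which should lack both genes, had 9.95% in sham and 8.92% in TAC (5.46 to 13.6) at that depth, and 22.0% and 22.5% before thinning at median depths of 8928 and 15033 UMIs. The low-C1q share in TAC was thus near this fibroblast background and the members' share above it. Barcodes with lymphocyte markers, however, came closer to members. At 2000 UMIs, TAC barcodes with T cell markers had 41.7% (36.2 to 47.3) and those with B cell markers 48.3% (37.6 to 59.2). In sham these shares were 76.1% (68.8 to 82.4) and 83.7% (77.5 to 88.7), near the 84.1% of sham members.

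Ly6g, the surface antigen used to sort mouse neutrophils, was detected in 14 sham members (9.27%), 190 TAC members (36.3%), 3 of 13 sham low-C1q barcodes (23.1%) and 240 of 608 TAC low-C1q barcodes (39.5%). At 2000 UMIs the TAC shares were 9.77% in members (7.36 to 12.6) and 25.2% in the low-C1q gate (21.8 to 28.9). The TAC macrophage reference had 0.174% (0.0475 to 0.446), against 0.434% before thinning at a median of 14107 UMIs. That reference was chosen to lack Csf3r and Cxcr2 UMIs, so its low share follows in part from the choice. At 2000 UMIs, TAC barcodes with T cell markers had 0.940% (0.194 to 2.72, 3 of 319). Those with B cell markers had 2.25% (0.273 to 7.88, 2 of 89). Sham members had 3.97% (1.47 to 8.45) at that depth, and 0 of 2871 sham macrophages had a UMI, which allows up to 0.104%.

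The limits of the rule passed through thinly filled ranges in part. In TAC, 31 gate barcodes had C1q from 15 to 20 and 14 members from 20 to 25 per 10000. In sham no gate barcode lay from 10 to 20, and 2 members from 20 to 25. Just under the calprotectin limit, from 25 to 50, lay 16 sham and 46 TAC barcodes that met every other condition, and 18 sham and 39 TAC members lay from 50 to 75. The granule condition alone kept out 5 sham and 56 TAC barcodes, and the receptor condition alone 4 in each library.

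Members were deep barcodes. In TAC they had a median of 19147 UMIs (quartiles 13445.5 and 28782.5), against 4375 in the low-C1q gate and 14107 in the macrophage reference. That was 4.38 times the first and 1.36 times the second. The medians of both references added up to 18482 UMIs, and the members' median was 1.04 times that sum. In sham the members' median was 11825 UMIs, against 3257 and 9124.5, and 0.955 times their sum of 12381.5.

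Genes that mark each side and were not used by the rule gave the same picture, again as a description, since they come from the same barcodes. From the TAC references, 121 genes were at least 10-fold higher in the low-C1q gate and 99 at least 10-fold higher in macrophages, each at 50 CPM or more (UMIs of a group scaled to a total of 1000000). TAC members carried a median of 468 UMIs of the neutrophil-specific genes, where the low-C1q gate had 446.5 and macrophages 20. They carried 1201 UMIs of the macrophage-specific genes, where macrophages had 1120 and the low-C1q gate 12. Sham members had 194 neutrophil-specific UMIs, against 227 and 8, and 766 macrophage-specific UMIs, against 684 in macrophages and 8 in the low-C1q gate. A median member thus held about as many molecules of each kind as a median barcode of each reference. Whether such a barcode held 1 cell or more was not tested, and no doublet caller was run.

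**Figure D2:**
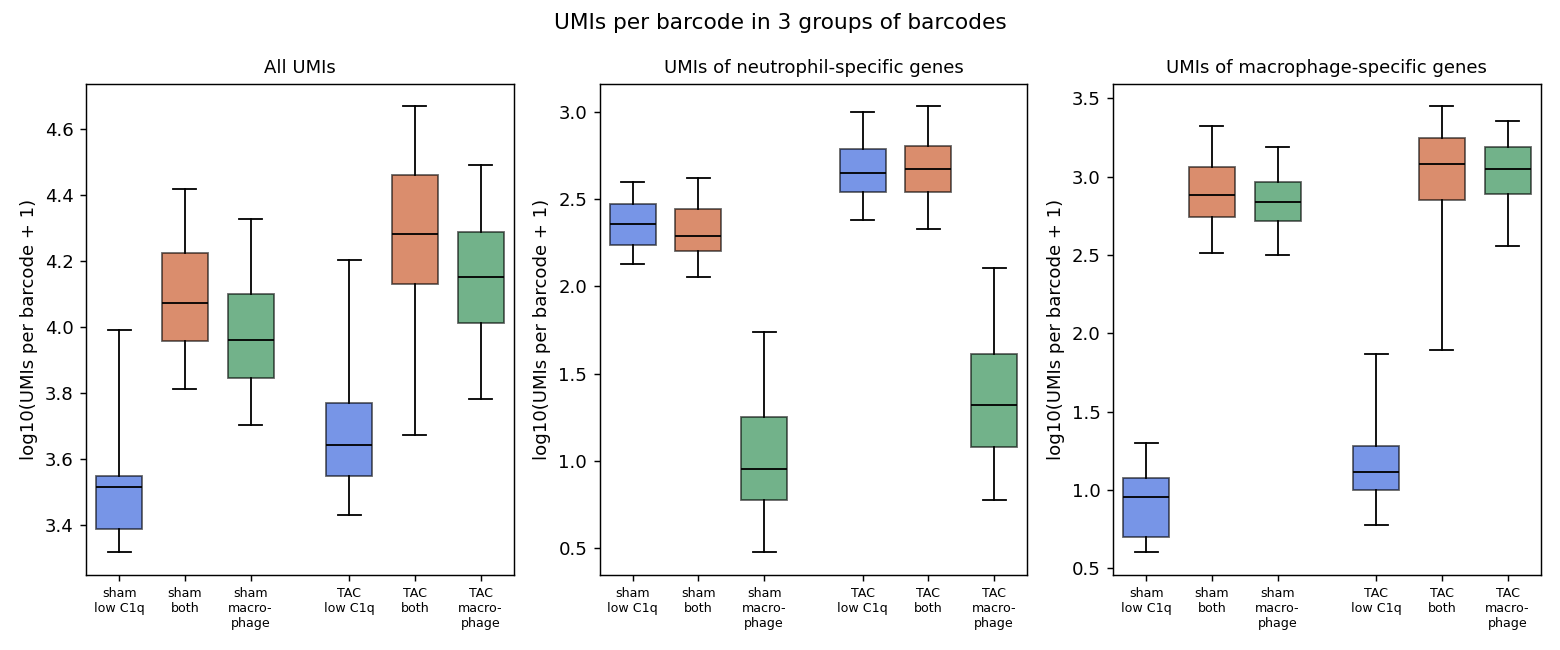
Box plots give log10 of UMIs per barcode plus 1 for all UMIs (left), the 121 neutrophil-specific genes (middle) and the 99 macrophage-specific genes (right). Boxes are quartiles with the median, whiskers the 5th and 95th percentiles, for the low-C1q gate (blue), members (orange) and the macrophage reference (green) of each library. Members match the low-C1q gate in the middle panel and the macrophage reference in the right one, and exceed both in the left one.

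Gene number followed depth. TAC members had a median of 3676 detected genes, the low-C1q gate 1091 and macrophages 3077. After every barcode was thinned to 2000 UMIs, which left out 1, 5 and 9 shallower barcodes, the medians were 918, 674 and 913. Sham gave 914 genes in members, 647 in the low-C1q gate and 902 in macrophages, with 0, 1 and 5 barcodes left out. At equal depth the medians of members and macrophages lay close together in both libraries.

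Among TAC members, macrophage-specific UMIs varied more than neutrophil-specific ones. From the 5th to the 95th percentile the first ran from 75.2 to 2830 and the second from 211 to 1094. C1q is itself a macrophage gene, and a split by its level sorted the members by depth too. The 14 TAC members with C1q from 20 to 25 had a median of 3975 UMIs and 32.5 macrophage-specific UMIs, close to low-C1q barcodes. The 115 with C1q above 200 had 22693 UMIs and 1506 macrophage-specific UMIs. Between these ends the depth jumped from 6859.5 UMIs in the 28 members at 30 to 50 to 20699 in the 67 members at 50 to 100. Neutrophil-specific UMIs stayed between 368 and 628 in every C1q range from 20 up. Most TAC members (470 of 523) and sham members (148 of 151) had C1q above 50. Across members, the log2 numbers of neutrophil- and macrophage-specific UMIs had a Pearson r of 0.25 in TAC (n = 523) and 0.18 in sham (n = 151). This is a description, and the points share the library and the barcode's depth. With the log2 number of all UMIs, neutrophil-specific UMIs had an r of 0.46 in TAC and 0.38 in sham, and macrophage-specific UMIs 0.88 and 0.86.

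Gene sums over all members placed most genes between the references. Of 12749 genes with at least 20 UMIs, 9476 lay between the low-C1q gate and the macrophage reference in CPM, 2081 above both and 1192 below both. Past 2-fold there were 24 above (0.188%) and 257 below (2.02%). The 99 macrophage-specific genes stood at a median of 0.776 of their level in macrophages (interval over genes 0.754 to 0.793), and 97 of them lay within 1.5-fold of that ratio. The 121 neutrophil-specific genes stood at 0.292 of their level in the low-C1q gate (0.281 to 0.302), and 119 lay within 1.5-fold. In sham, where the references were the 13 low-C1q barcodes and the macrophages, the ratios were 0.894 for the 99 macrophage-specific genes and 0.294 for 106 measured neutrophil-specific genes. Of the first 95 lay within 1.5-fold of their ratio, but of the second only 69 (65.1%), and the 106 ratios ran from 0.14 to 0.85 between the 5th and 95th percentiles.

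A weighted sum of both TAC references, with 0.776 of the macrophage level and 0.292 of the low-C1q level, came close to the members for most genes. Both weights are the members' own median ratios, so this closeness is partly built in and is a description, not a test. The macrophage reference alone was also close. Of 12627 genes with at least 20 UMIs, 4.12% were over 2-fold higher and 4.08% over 2-fold lower in members. Of 9166 genes with at least 200 UMIs, 9022 (98.4%) lay within 1.5-fold of it. Only 3 were over 2-fold above it, namely Marco, a scavenger receptor gene, Iglc2, an immunoglobulin light chain gene, and the predicted gene Gm10260, named here after their values were seen. Marco was at 9.12 CPM in members, 4.695 in macrophages and 0.564 in the low-C1q gate. Another 48 were over 2-fold below it, among them the fibroblast genes Dcn and Mgp.

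**Figure D3:**
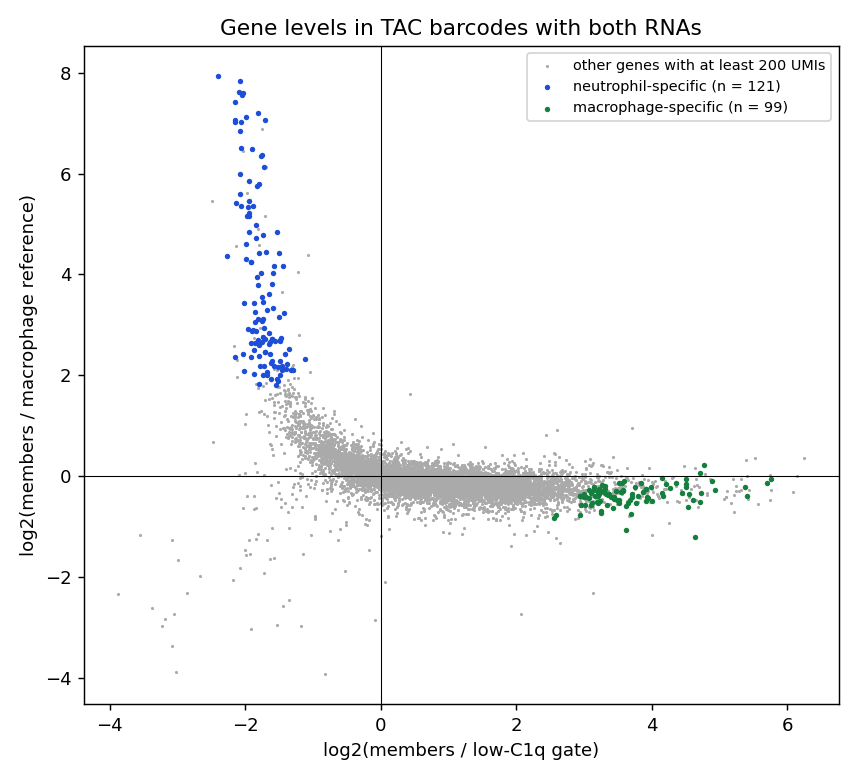
Each point is 1 gene in the TAC library. The x axis is the log2 ratio of members to the low-C1q gate and the y axis the log2 ratio of members to the macrophage reference. The 121 neutrophil-specific genes (blue) lie in a narrow band left of 0 and the 99 macrophage-specific genes (green) just below 0, and genes of the rule are not drawn.

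Genes of resident macrophages led the difference between TAC members and the low-C1q gate. C1q, itself a macrophage gene, split both groups, so higher macrophage genes in members follow in part from the choice. Of 10915 genes tested, 4526 (41.5%) were over 2-fold higher and 809 (7.41%) over 2-fold lower, and the median gene had a log2 ratio of 0.77. List medians below are on the CPM scale, and scaling to the median gene lowers each of them by that 0.77. Lyve1, which encodes a hyaluronan receptor, was at 496 CPM in members and 9.02 CPM in the low-C1q gate, 55.1-fold higher (38.95 to 80.6). Cd163, the haemoglobin scavenger receptor, stood at 138 and 2.54 CPM, 54.5-fold higher (28.7 to 119). The mannose receptor gene Mrc1 was 41.9-fold and the C-type lectin gene Mgl2 43.2-fold higher. The others among the 10 highest were Ccl12 (30.6-fold) and Ccl8 (27.3-fold), monocyte chemoattractants, the folate receptor gene Folr2 (29.7-fold), Fcna (27.5-fold), Tmem37 (27.4-fold) and Retnla (26.1-fold).

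Neutrophil genes were lower in members. Over the 121 neutrophil-specific genes the median ratio of members to the low-C1q gate was 0.292, and 119 lay within 1.5-fold of it. Their ratios ran from 0.189 for Stfa1 to 0.459 for Thbs1. The neutrophil genes named next were picked as the lowest of the ranking, so their closeness to each other follows in part from that choice. Retnlg, a resistin-like protein of neutrophils, was at 2090 CPM in members and 9339 CPM in the low-C1q gate, 4.47-fold lower (4.39 to 4.54). Ly6g was at 50.2 and 223 CPM, 4.44-fold lower (3.99 to 4.95). The stefin genes Stfa1 (5.30-fold) and Stfa2l1 (4.42-fold), the receptor gene Tarm1 (4.81-fold), Gadd45a (4.47-fold), Pglyrp1 (4.40-fold) and Wfdc21 (4.24-fold) were also among the lowest. The lowest ratios belonged to 2 genes of fibroblasts, Mgp (9.35-fold lower, 20.3 against 189.7 CPM) and Dcn (8.49-fold lower).

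By list, 22 of 23 macrophage markers were over 2-fold higher in members than in the low-C1q gate (median log2 ratio 3.36). Of 26 neutrophil markers 25 were over 2-fold lower (median -1.86). C1q split both groups, so the directions of macrophage and neutrophil lists here follow in part from the choice. Of 18 measured resident macrophage genes 17 were higher (median 4.61). Genes of MHC class II presentation, which show peptides to CD4 T cells, were higher in 11 of 12 cases (median 2.98), with Cd40 13.1-fold and H2-Eb1 10.1-fold, and Cd80 was 2.39-fold lower. The 25 measured lysosome genes had 18 higher and 0 lower (median 1.36), with Lgmn 13.1-fold and Glb1 11.2-fold higher and Ctsd 1.24-fold lower. Of 30 measured genes for the uptake of dying cells 15 were higher and 5 lower (median 0.92), a share near the 41.5% of all genes and a median near the 0.77 of all genes. Timd4, a phosphatidylserine receptor, was 23.3-fold and Stab1 18.7-fold higher, and Cd300lf was 3.01-fold and Anxa1 2.76-fold lower.

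Past 2-fold, interferon-inducible and inflammatory genes were split in direction, but both list medians lay below the 0.77 of all genes. Of 33 interferon-inducible genes 6 were higher and 6 lower in members (median -0.47, interval over genes -0.77 to -0.34). Of all genes, 41.5% were higher and 7.41% lower. Iigp1 was 5.58-fold and the chemokine gene Cxcl10 4.86-fold higher, and Slfn4 was 3.85-fold and Ifit3b 2.58-fold lower. Of 27 inflammatory and NF-kB genes 6 were higher and 10 lower (median -0.57). The monocyte chemokine genes Ccl7 and Ccl2 were 21.9-fold and 9.98-fold higher. Il1b, the inflammatory cytokine, was at 3341 CPM in members and 12228 CPM in the low-C1q gate, 3.66-fold lower. The cell cycle list had 15 of 22 genes higher and 0 lower (median 1.82). Survival and cell death genes (4 of 26 higher, 2 lower, median 0.10) and oxidative burst genes (2 of 8 higher, 1 lower, median 0.08) lay below the median gene, and both medians turn negative on that scale.

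Against macrophages, the lists of neutrophil and fibroblast genes stood furthest apart in TAC members. Of 12627 genes tested 520 (4.12%) were over 2-fold higher and 515 (4.08%) over 2-fold lower. Neutrophil markers were higher in 23 of 26 cases (median log2 ratio 4.60) and neutrophil granule proteins in 13 of 16 (median 5.04). Members were chosen to have calprotectin and a receptor UMI and the reference to lack them, so these values follow in part from the choice. None of 23 macrophage markers and none of 22 cell cycle genes passed 2-fold (medians -0.32 and -0.01). Interferon-inducible genes were higher in 7 of 33 cases and lower in none (median 0.40), and MHC class II genes higher in 1 of 12 and lower in none (median -0.42). Fibroblast markers were lower in 12 of 14 cases (median -1.97), with a summed level of 1.74 UMIs per 10000 in members, 3.85 in macrophages and 3.47 in the low-C1q gate.

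Within the macrophage-specific genes the ratio of members to macrophages ran from 0.43 to 1.16. Ccl8 (1.16, interval 1.14 to 1.18) and Fcna (1.04) stood highest, followed by the complement gene C4b (0.968), Lyve1 (0.965) and Timd4 (0.956). Retnla (0.431, 0.399 to 0.464) and Lyz1 (0.473) stood lowest, followed by Rgs1 (0.563), the neutrophil chemoattractant gene Cxcl1 (0.583), Pmepa1 (0.584), Cd72 (0.596) and Cd83 (0.598). Within the neutrophil-specific genes the ratio of members to the low-C1q gate ran from 0.189 for Stfa1 to 0.459 for Thbs1, which encodes thrombospondin-1, and 0.408 for Plac8.

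Among genes at 50 CPM or more outside the range of both TAC references, those above lay close to it and Dcn and Mgp lay far below. The highest above the nearer reference were Pclaf, a replication factor gene, at 75.4 against 59.4 CPM in macrophages (1.27-fold, 1.17 to 1.37), Mtpn (1.24-fold over the low-C1q gate), the granzyme gene Gzma (1.21-fold), Tmpo (1.20-fold) and Fxyd2 (1.19-fold). Dcn was 8.49-fold and Mgp 7.88-fold under the nearer reference, followed by AA467197 (1.73-fold), Ctla2a (1.64-fold) and AY036118 (1.53-fold).

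In TAC members, interferon-inducible genes were higher and resident macrophage and heat-shock genes lower than in sham members. Of 10875 genes tested 995 (9.15%) were over 2-fold higher and 1017 (9.35%) over 2-fold lower, with a median log2 ratio of -0.06. Members had a median of 7.20% mitochondrial UMIs in sham and 4.11% in TAC, and macrophages 8.14% and 4.64%; the part of this in the gene differences was not tested. All 33 interferon-inducible genes were over 2-fold higher (median 2.86). Gbp4, a guanylate-binding protein, had 2 UMIs in sham members (0.973 CPM) and reached 186 CPM in TAC members, a 191-fold ratio with an interval of 52.8 to 1578. Gbp2b likewise had 2 sham UMIs and 212 CPM in TAC (218-fold, 60.3 to 1801), and single Gbp genes are uncertain because family members resemble each other. The T cell chemokine gene Cxcl9 was 80.2-fold, Ly6a 76.7-fold and Fam26f 40.5-fold higher. Ifitm3 had the lowest ratio of the list, with 1799 and 4112 CPM (2.29-fold).

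Some genes of neutrophils and monocytes were also far higher in TAC members. Chil3, a chitinase-like protein, went from 2.92 CPM in sham members to 497 CPM in TAC members, 170-fold higher (78.2 to 464). The TAC low-C1q gate had 1562 CPM and TAC macrophages 40.5 CPM. Saa3, an apolipoprotein of the acute phase, was 132-fold higher (67.1 to 307) and Plac8 52.6-fold (38.1 to 74.7). Of the 19 monocyte and monocyte-derived genes, which include Chil3 and Plac8, 12 were over 2-fold higher and 2 lower (median 1.96). Those lower were Nr4a1, an immediate-early transcription factor gene, from 203 to 97.9 CPM (2.08-fold) and Lyz1 from 101 to 50.2 CPM (2.02-fold). The granule protease gene Elane had no UMI in sham members and 18.2 CPM (214 UMIs) in TAC members. Of 26 neutrophil markers 5 were over 2-fold higher and 0 lower (median 0.43), with Ly6g 3.82-fold higher, from 13.1 to 50.2 CPM, and Cxcr4 1.73-fold and Mmp9 1.58-fold lower. That median turned to -0.29 at a mitochondrial limit of 5%, where sham had 2 members.

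The granzyme genes of NK and T cells had the highest ratios by rank. Gzma had no UMI in sham members and 3029 UMIs (258 CPM) in TAC members, a ratio of at least 177 when sham members are set to a floor of 3 UMIs in all. Gzmb had none and 1027 UMIs, at least 59.97-fold. The macrophage reference carried both too, and Gzma there had 29.9 and 214 CPM in the order sham and TAC. All 12 NK cell markers were detected in TAC members, with a summed level of 8.53 UMIs per 10000, and 7 of 12 in sham members, with 0.944. In macrophages these sums were 10.8 and 2.54. The part of NK cell RNA in the result was not tested.

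Lower in TAC members were Cd209f, a C-type lectin gene, from 67.2 to 4.43 CPM (15.1-fold, 10.9 to 21.3), the chemokine gene Ccl24 (12.6-fold) and Retnla, a product of alternatively activated macrophages, from 627 to 66.2 CPM (9.48-fold). Of 19 measured resident macrophage genes 13 were lower and only Ccl8 was higher (median -1.24). Its level was 530 CPM in sham members and 1987 CPM in those of TAC. That list median was -0.47 at a mitochondrial limit of 5%. Heat-shock and immediate-early genes, which respond to stress and to cell handling, were lower in 10 of 23 cases and higher in none (median -0.90). Hspa1b (10.8-fold) and Hspa1a (6.68-fold), near-identical genes whose split is uncertain, led them, and Dnajb1 was 5.64-fold lower. The growth factor gene Igf1 was 5.45-fold and the endothelin receptor gene Ednrb 5.21-fold lower.

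The same libraries differed in a like way in the macrophage reference. There 5.67% of 13282 genes were over 2-fold higher and 9.64% over 2-fold lower in TAC. The median log2 ratio was 2.53 for interferon-inducible genes (30 of 33 higher), -1.22 for resident macrophage genes (13 of 20 lower) and -0.90 for heat-shock and immediate-early genes (11 of 23 lower). Genes of the mitochondrial genome had medians of -0.84 in members and -0.80 in macrophages. For cell cycle genes the values were 1.42 in members (15 of 22 higher) and 0.59 in macrophages (0 of 22). In sham, members stood below macrophages in this list (12 of 22 lower, median -1.15), beside 8.51% of all 12417 genes lower and 4.7% higher. The difference between members and macrophages in the TAC to sham ratio was not tested for any list.

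**Figure D4:**
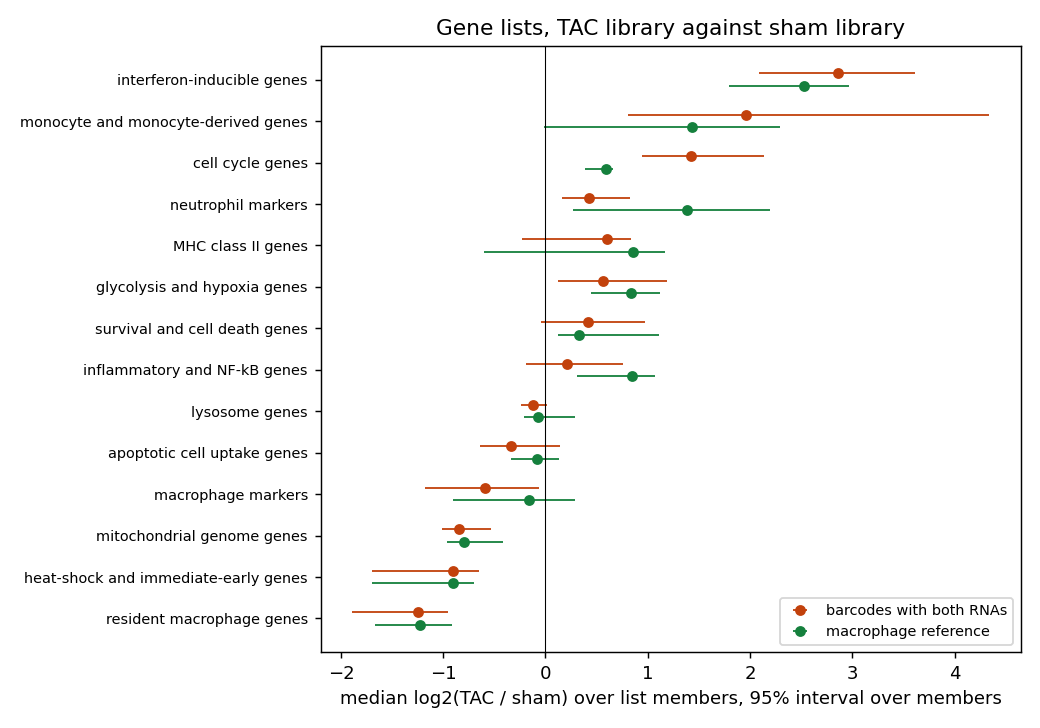
Points give the median log2 ratio of TAC to sham over the measured genes of each list, in CPM, for members (orange) and the macrophage reference (green), and bars the 95% interval over list genes. Interferon-inducible genes stand at 2.86 and 2.53 and resident macrophage genes at -1.24 and -1.22, whereas cell cycle genes stand at 1.42 and 0.59.

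Some members reached the limits that defined other cell classes, and counts over all kept barcodes are set beside them. At least 3 UMIs of Cd3d, Cd3e and Cd3g were present in 6 sham (3.97%) and 28 TAC members (5.35%). The limit for B cell markers was reached by 8 (5.30%) and 14 (2.68%) and that for endothelial markers by 1 and 6. Of 4169 kept sham and 5601 kept TAC barcodes, 163 and 319 reached the T cell limit and 185 and 89 the B cell limit. The endothelial limits were reached by 132 and 409 of them and the fibroblast limits by 191 and 213. The fibroblast limits (10 UMIs of Dcn, Col1a1, Col3a1 and Pdgfra, at least 1 of them of Pdgfra) were reached by 0 of 151 sham members, which allows a share of up to 1.99% at 3 barcodes of the total (exact upper limit 2.41%). In TAC they were reached by 0 of 523 members, which allows up to 0.574% (exact 0.703%). Fibroblast RNA at lower levels was present, with 8 of 14 marker genes and 369 UMIs over all sham members (1.80 per 10000). Over all TAC members 13 of 14 genes and 2040 UMIs were present (1.74 per 10000). Erythroid markers summed to 0.896 UMIs per 10000 in sham and 16.5 in TAC members, and to 1432 in the 13 sham low-C1q barcodes.

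Barcodes chosen by markers of lymphocytes carried C1q, as did most kept barcodes. C1q was above 20 per 10000 in 3605 of 4169 kept sham and 3774 of 5601 kept TAC barcodes. It was above 20 per 10000 in 153 of 163 sham (93.9%) and 229 of 319 TAC (71.8%, 66.5 to 76.7) barcodes with T cell markers. With B cell markers it was in 178 of 185 (96.2%) and 68 of 89 (76.4%, 66.2 to 84.8). Endothelial barcodes had 37.1% in sham and 11.2% in TAC, and fibroblast barcodes 14.1% and 8.92%. Calprotectin of at least 50 per 10000, a higher limit than that of C1q, was reached by fewer of the same barcodes. The shares in sham and TAC were 3.68% and 10.7% of T cell and 4.32% and 20.2% of B cell barcodes. They were 1.52% and 3.18% of endothelial and 0.524% and 0.469% of fibroblast barcodes. Of all kept barcodes with C1q above 20, members included, 161 of 3605 in sham and 584 of 3774 in TAC reached that calprotectin limit.

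Depth moved with C1q in those barcodes as well. TAC barcodes with T cell markers had a median of 25212 UMIs with C1q above the limit and 8745 without. For fibroblast barcodes the values were 24520 and 14319.5. The 1503 sham and 535 TAC barcodes with under 300 genes held 2603000 and 1423416 UMIs. They had C1q at 6.34 (sham) and 8.68 (TAC) per 10000 and S100a8 and S100a9 at 2.04 and 13.2, all below the limits of the rule. These barcodes are not known to be empty droplets, so they do not give the level of free RNA. The part of free RNA and of cells sharing a droplet in the members was not tested.

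**Figure D5:**
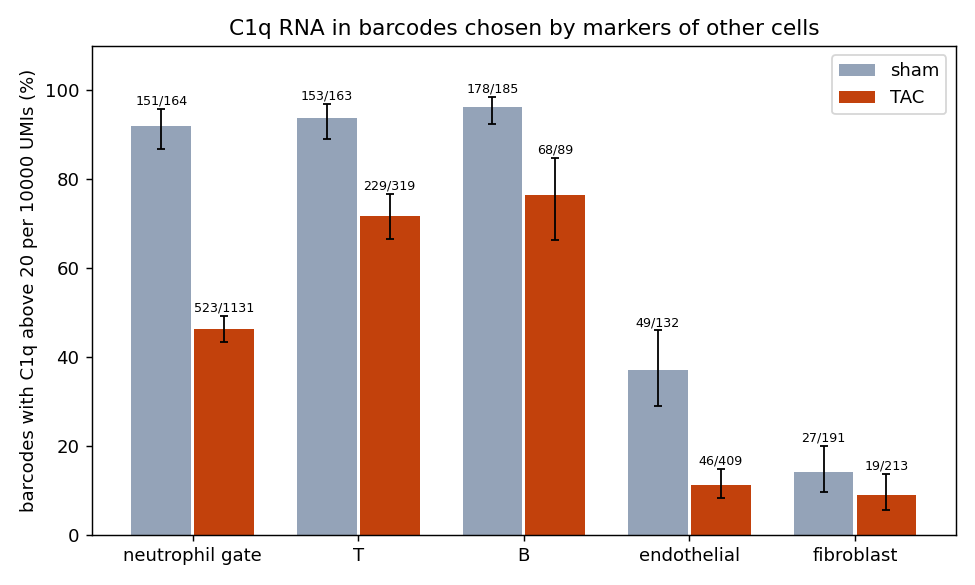
Bars give the percentage of kept barcodes with C1q above 20 per 10000 UMIs among barcodes chosen by neutrophil (the gate of the members), T cell, B cell, endothelial and fibroblast markers in sham (grey) and TAC (orange). Error bars are exact 95% binomial intervals, and numbers above them are barcodes above the limit of all in the class. The sham share is the higher in each class, with overlapping intervals for fibroblasts, and the neutrophil gate has 151 of 164 and 523 of 1131. Over all kept barcodes, not drawn, the counts are 3605 of 4169 in sham and 3774 of 5601 in TAC.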

How the data were processed

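The deposited files hold raw counts of UMIs per gene and barcode, with no normalization, for 31053 features in 2 libraries. Per the submitters' processing notes, Cell Ranger 3.0 and the mm10 build were used. For the calling of cell barcodes, the method was not given in the sources used here. Several droplet runs are spoken of in the labels, but all barcodes carry 1 suffix, so runs cannot be separated. Doublets were not removed.

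UMIs were summed over the barcodes of each group (2054705 in sham members, 11728914 in TAC members, 3548396 in the TAC low-C1q gate, 35998344 in TAC macrophages) and scaled to 1000000 (CPM). Log2 ratios had 0.5 UMI added to each count. Genes with at least 20 UMIs over the groups compared were tested against a 2-fold limit, which is a size and not a test of significance. Shares have Clopper-Pearson intervals, CPM exact Poisson intervals and ratios conditional binomial intervals. A count of 0 was given a floor of 3, as UMIs over the group or as barcodes of the total. Thinning drew 2000 UMIs per barcode. Other cell classes needed at least 3 UMIs of T cell, B cell or endothelial markers or 10 of fibroblast markers, with at least 1 UMI of Cdh5 for endothelial and of Pdgfra for fibroblast barcodes.

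The members and 30 gene lists were chosen with earlier results of these data known, so no list is independent evidence. For each comparison the text names the 10 highest and 10 lowest genes with at least 50 CPM in either group and 50 UMIs over both, or the leading ones of these, and up to 2 list genes each way. The ranking left out rule genes, predicted genes, sex-linked genes, antigen receptor segments and genes of haemoglobin, ribosomes and mitochondria. Alternatives were other limits of the rule and of the barcode filter, thinning before the rule, equal weight per barcode, other gene filters and other scalings. Scripts were tested on simulated data. They ran in Python 3.11.15 with matplotlib 3.10.9, pandas 2.3.3, scipy 1.17.1 and numpy 2.4.6.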

Additional observations from a re-analysis of the deposited data

Results flagged for a closer look

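Barcodes over the mitochondrial limit of 10% were outside the comparisons, and many of them met the rest of the rule. In sham, 70 such barcodes met it as members and 117 as the low-C1q gate. In TAC, 42 met it as members and 150 as the low-C1q gate. The 117 sham low-C1q barcodes over the limit outnumber the 13 kept ones. The part of RNA quality in these counts was not tested.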

How the results depend on the processing

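Of 174 recomputed values for the main results, 128 stayed close, 45 moved and 1 turned. Only log2 ratios of shares and list medians could turn. Shares within the gate, depth ratios, gene counts and ratios of specific genes have no sign to change. Of 517 values for single genes 485 stayed close, 32 moved and 0 turned. Those genes were the 10 highest and 10 lowest of a ranking, so their direction was hardly open to change. The log2 ratio of the members' share (1.37) was 2.69 at a mitochondrial limit of 5%, 1.81 at 25%, 1.66 with C1q above 10 and 1.67 after thinning. That of the low-C1q share (5.12) was 3.36 and 3.29 at those mitochondrial limits. Members' share of the TAC gate (46.2%) was 55.7% and 42.9% at those mitochondrial limits, 41.6% with C1q above 50, 56.7% above 10 and 38.4% after thinning, and the sham share (92.1%) was 66.7% and 67.7% at those limits. The ratio of median UMIs (4.38) was 3.83 with C1q above 10 and 3.98 after thinning.

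Between TAC members and the low-C1q gate, scaling to the median gene gave medians of 2.59 for macrophage markers, -2.63 for neutrophil markers, 2.21 for MHC class II and -1.23 for interferon-inducible genes. Neutrophil markers were -1.68 with C1q above 10, -1.58 after thinning, -1.65 with equal weight per barcode and -2.02 with totals without the rule genes. MHC class II genes were 2.28 with C1q above 50, 3.58 after thinning and 3.69 with equal weight. At a mitochondrial limit of 5% interferon-inducible genes were -0.25, and between TAC and sham members resident macrophage genes were -0.47 and neutrophil markers turned to -0.29. Genes past 2-fold above both references (24) numbered 38 with equal weight and 3 with at least 100 UMIs, and 111 past 1.5-fold. Those below (257) numbered 71 with at least 100 UMIs and 390 past 1.5-fold. The median ratio of macrophage-specific genes (0.776) was 0.800 at 5% mitochondrial UMIs, 0.748 with C1q above 10, 0.696 after thinning, 0.722 with equal weight and 0.802 without the rule genes. That of neutrophil-specific genes (0.292) was 0.305, 0.330, 0.361, 0.335 and 0.262 in the same order, 0.306 with C1q above 50 and 0.309 with S100a8 and S100a9 of at least 100.

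The cause of these changes was not tested. At a mitochondrial limit of 5% sham kept 121 barcodes. Totals without the rule genes, scaling to the median gene and the settings for specific genes and for the low-C1q share were chosen after seeing the data. No paired analysis was possible because each group is 1 library. One library per group limits every comparison of TAC with sham, and the 13 sham low-C1q barcodes with 52161 UMIs limit what can be said of them.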
